A study of Mus musculus with 6 samples.

Results

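Acyl-CoA thioesterases are enzymes that split the thioester bond of an acyl-CoA and release the free fatty or carboxylic acid together with coenzyme A. The 10 genes described here are Acot1, Acot2, Acot3, Acot4, Acot7, Acot8, Acot9, Acot11, Acot12 and Acot13. They were taken by gene symbol from an array of liver RNA, using probe sets that carry a single symbol. A gene with several such probe sets was represented by the one chosen by its signal, as the highest mean over the 6 arrays. Of the 10 genes, 9 had such a probe set, among 22180 genes in all. Acot8, a peroxisomal thioesterase, shares its only probe set with another gene and was not analysed here. Acot9, a mitochondrial member, lay below the signal filter, which left 8 genes in the fit over the brighter 50% of genes, 11090 in number. Only Acot4 had more than 1 single-symbol probe set, so the mean over the arrays chose a probe set for that gene alone.

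The livers came from 3 knockout (KO) mice that lack Gpr146, a G protein-coupled receptor, throughout the body, and from 3 wild-type (WT) littermates. Per the labels, all 6 animals were chow-fed C57BL/6J males aged 24 weeks, were fasted for 16 hours and were then refed for 6 hours. Each liver is 1 animal and was measured on 1 array with the authors' deposited log2 signal per probe set. Because the deletion is not limited to hepatocytes, a difference in liver RNA does not show in which organ the receptor was missing to produce it.

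Thioesterases work against the acyl-CoA synthetases and so help to set the balance between acyl-CoA and free acid in each compartment of the cell. The type I enzymes, Acot1 to Acot4, share an alpha/beta hydrolase fold. In mouse liver they are known as genes induced by fasting and by PPARalpha, the nuclear receptor that senses fatty acids. The type II enzymes, Acot7 to Acot13, share a hotdog fold and are unrelated to type I in sequence.

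In the reference gene table (GRCm38.p6) the type I genes lie side by side on chromosome 12, in the order Acot2, Acot1, Acot4 and Acot3, followed by Acot5 and Acot6. The 250 bases before and 50 bases after the start site of the 4 measured genes, from RefSeq on GRCm38.p6, are shown because these neighbours include the members with the largest differences. All 4 are on the plus strand. The first window is chr12:83987611-83987910, the second chr12:84009252-84009551, the third chr12:84038129-84038428 and the fourth chr12:84051894-84052193. Capitals mark AGGTCA, the half-site that PPARalpha and related receptors bind, with its longer form AAAGGTCA, and CCAAT, each on either strand.
Acot2: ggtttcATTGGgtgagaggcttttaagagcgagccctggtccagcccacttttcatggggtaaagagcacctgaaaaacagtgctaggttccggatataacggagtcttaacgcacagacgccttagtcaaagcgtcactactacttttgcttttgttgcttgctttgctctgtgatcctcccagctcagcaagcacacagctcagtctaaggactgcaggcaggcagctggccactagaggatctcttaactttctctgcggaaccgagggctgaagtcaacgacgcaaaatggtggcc
Acot1: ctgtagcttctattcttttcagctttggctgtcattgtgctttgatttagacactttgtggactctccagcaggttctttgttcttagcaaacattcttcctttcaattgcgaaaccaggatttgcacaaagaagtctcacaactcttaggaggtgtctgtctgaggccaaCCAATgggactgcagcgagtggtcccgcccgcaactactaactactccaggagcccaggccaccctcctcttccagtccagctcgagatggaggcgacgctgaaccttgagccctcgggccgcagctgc
Acot4: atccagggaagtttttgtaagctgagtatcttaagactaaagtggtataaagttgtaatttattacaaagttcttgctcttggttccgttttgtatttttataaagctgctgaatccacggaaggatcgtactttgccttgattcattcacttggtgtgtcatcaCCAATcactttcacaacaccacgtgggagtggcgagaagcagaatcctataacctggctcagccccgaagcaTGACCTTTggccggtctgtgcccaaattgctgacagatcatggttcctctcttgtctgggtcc
Acot3: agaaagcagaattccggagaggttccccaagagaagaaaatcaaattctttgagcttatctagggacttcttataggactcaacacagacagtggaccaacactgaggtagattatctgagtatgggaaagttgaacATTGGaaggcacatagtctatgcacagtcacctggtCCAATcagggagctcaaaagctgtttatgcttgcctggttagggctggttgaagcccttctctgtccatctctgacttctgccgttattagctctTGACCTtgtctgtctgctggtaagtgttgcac

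AGGTCA occurred once in the Acot4 window, ending 8 bases before the start site, and once in the Acot3 window, beginning 18 bases after it. The Acot4 match was also a match to AAAGGTCA, which contains it. Neither form was in these windows of Acot2 and Acot1. Among the type II genes, AGGTCA was also in the window of Acot12, beginning at base -110 relative to the start site. It was in none of the windows searched for Acot7, Acot8, Acot9 and Acot11. Acot3 and Acot11 each had 2 windows, and only that of the most upstream start was searched. Acot13 had no window. Of 32851 windows of the same length in the promoter table, 16.3% held AGGTCA, 1.51% held AAAGGTCA and 37.4% held CCAAT. Each of the 4 windows shown held CCAAT. So did the windows searched for Acot8, Acot9 and Acot11, but not those of Acot7 and Acot12. These are letter matches, and the motifs were chosen with the sequences in view.

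Acot3 had the largest difference of the family. It encodes a peroxisomal enzyme for medium- and long-chain acyl-CoA. Its log2 signal was 5.16, 4.85 and 4.13 in KO mice 1 to 3, against 6.03, 6.55 and 4.95 in WT mice 1 to 3. The KO and WT values overlapped, since WT mouse 3 lay below KO mouse 1. Acot3 averaged 4.71 ± 0.53 in KO livers and 5.84 ± 0.82 in WT livers (SD, n = 3 each). The log2 difference, KO minus WT, was -1.13 ± 0.39 (SE), with a 95% interval from -2.02 to -0.24. The signal was thus 2.19-fold higher in WT. With limma and Benjamini-Hochberg adjustment over all genes tested the adjusted p was 0.437, and the unadjusted p was 0.0190. An exact two-sided permutation test gave p = 0.2, where 3 against 3 cannot go below 0.1. Acot3 therefore did not pass the threshold of an adjusted p under 0.05.

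Acot2, the mitochondrial long-chain thioesterase, was 6.41, 6.16 and 5.38 in KO mice 1 to 3, against 6.57, 7.08 and 6.10 in WT mice 1 to 3. WT mouse 2 was the highest and KO mouse 3 the lowest, as for Acot3, and the groups overlapped. Acot2 averaged 5.98 ± 0.53 in KO livers and 6.58 ± 0.49 in WT livers (SD, n = 3 each). The difference was -0.60 ± 0.30 (SE; limma adjusted p = 0.593), and it was -0.30 without KO mouse 3 and -0.35 without WT mouse 2.

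Acot4, a peroxisomal enzyme that in mouse acts on succinyl-CoA, was 5.89, 6.36 and 5.98 in KO mice 1 to 3, against 6.51, 6.70 and 6.14 in WT mice 1 to 3. WT mouse 2 was again the highest, and KO mouse 2 overlapped the WT range. Acot4 averaged 6.08 ± 0.25 in KO livers and 6.45 ± 0.28 in WT livers (SD, n = 3 each). The difference was -0.37 ± 0.17 (SE; limma adjusted p = 0.562). The second probe set of the gene, of lower signal, was 4.51, 4.56 and 3.99 in KO mice 1 to 3, against 4.95, 5.04 and 4.30 in WT mice 1 to 3. Its difference of -0.41 ± 0.21 (SE) was close to that of the first, and its groups overlapped too (limma adjusted p = 0.720 in a fit over all single-gene probe sets).

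Acot1 departed from this pattern. It encodes the cytosolic long-chain thioesterase and is the closest relative of Acot2. Its log2 signal was 5.47, 6.14 and 5.10 in KO mice 1 to 3, against 5.61, 5.69 and 5.28 in WT mice 1 to 3. The KO mice spanned the whole range, with KO mouse 2 the highest and KO mouse 3 the lowest of the 6. Acot1 averaged 5.57 ± 0.53 in KO livers and 5.53 ± 0.22 in WT livers (SD, n = 3 each), a difference of 0.04 ± 0.24 (SE; limma adjusted p = 0.976). Its sign was not stable: the difference was -0.00013 after median centring, -0.0087 after quantile normalization, -0.24 without KO mouse 2 and 0.28 without KO mouse 3. The type I genes are close in sequence, and the positions of their probes were not used here, so how much signal neighbours share was not tested for any of the 4.

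**Figure D1:**
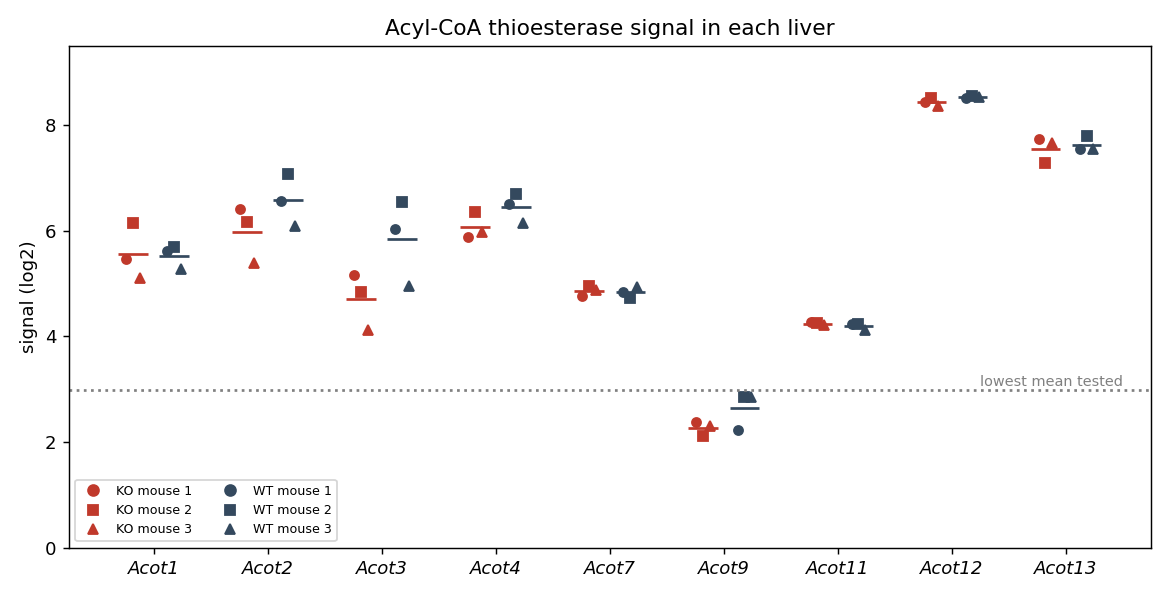
Log2 signal (vertical axis) of the 9 thioesterase genes with a single-gene probe set, with 3 KO livers left of 3 WT livers for each gene. Points are mice, short bars are group means, and the dotted line is the lowest mean signal that entered the fit; for no gene are the KO and WT points fully apart.

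The spread among mice was wider in the type I genes than in the 4 tested type II genes, and the dim type II gene Acot9 lay close to Acot4. Between the lowest and the highest of the 6 mice, Acot3 ranged over 2.42 log2 units, Acot2 over 1.70, Acot1 over 1.04 and Acot4 over 0.81. The same range was 0.15 for Acot11, 0.19 for Acot12, 0.23 for Acot7, 0.50 for Acot13 and 0.74 for Acot9. WT mouse 2 had the highest signal in Acot2, Acot3 and Acot4, and KO mouse 3 had the lowest in Acot1, Acot2 and Acot3. Among the type II genes, WT mouse 2 was also the highest in Acot9, Acot12 and Acot13, and KO mouse 3 the lowest in Acot12. The mean deviation of the 4 type I genes from their own means was -0.11, 0.03 and -0.70 in KO mice 1 to 3, against 0.34, 0.66 and -0.23 in WT mice 1 to 3. WT mouse 3 lay below KO mice 1 and 2 in this mean.

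The ratios between the type I genes varied from mouse to mouse. On each array the log2 signal of Acot2 minus that of Acot3 was 1.24, 1.31 and 1.255 in KO mice 1 to 3, against 0.55, 0.53 and 1.15 in WT mice 1 to 3. The KO values all lay above the WT values, with a shift of 0.53 (exact two-sided permutation p = 0.1, the smallest possible, and 0.24 when adjusted over the 6 pairs of type I genes). The other 5 pairs overlapped between KO and WT. The share of pairs of other genes with such separation was not computed, so this pair has no background to be read against. Since probe sets differ in brightness, only the shift between groups can be read from these ratios, and they were examined after the values were seen.

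Among the type II genes, Acot12 had the highest signal. It encodes a cytosolic enzyme that hydrolyses acetyl-CoA and is expressed mainly in liver. It was 8.44, 8.52 and 8.37 in KO mice 1 to 3, against 8.51, 8.56 and 8.53 in WT mice 1 to 3. KO mice 1 and 3 were below every WT mouse and KO mouse 2 was within the WT range. The difference was -0.09 ± 0.09 (SE), with a 95% interval from -0.29 to 0.12 (limma adjusted p = 0.809).

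Acot13, also called Them2, is a long-chain thioesterase associated with mitochondria. It was 7.73, 7.29 and 7.65 in KO mice 1 to 3, against 7.55, 7.79 and 7.54 in WT mice 1 to 3. The groups were interleaved, with KO mouse 2 the lowest and WT mouse 2 the highest. The difference was -0.07 ± 0.14 (SE; 95% interval -0.38 to 0.24; limma adjusted p = 0.915), and it was 0.06 without KO mouse 2 and 0.01 without WT mouse 2.

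Acot7, a long-chain thioesterase best known from brain, was 4.76, 4.95 and 4.87 in KO mice 1 to 3, against 4.85, 4.72 and 4.94 in WT mice 1 to 3. Its difference was 0.02 ± 0.10 (SE; 95% interval -0.21 to 0.25; limma adjusted p = 0.962), and the sign turned to -0.02 after median centring and to -0.03 after quantile normalization. Acot11, also called Them1, carries a lipid-binding START domain and is known from brown fat. It was 4.27, 4.25 and 4.21 in KO mice 1 to 3, against 4.23, 4.24 and 4.11 in WT mice 1 to 3. Its difference was 0.05 ± 0.09 (SE; 95% interval -0.16 to 0.25; limma adjusted p = 0.915), and it was -0.0050 after quantile normalization. In both genes the groups overlapped.

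Acot9 was dim, at 2.38, 2.12 and 2.31 in KO mice 1 to 3, against 2.22, 2.85 and 2.85 in WT mice 1 to 3. WT mouse 1 lay within the KO range and the other two WT mice above it. In a fit without the signal filter the difference was -0.37 ± 0.17 (SE; limma adjusted p = 0.668). Background can compress differences at such low signal, and its effect on Acot9 was not tested.

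**Figure D2:**
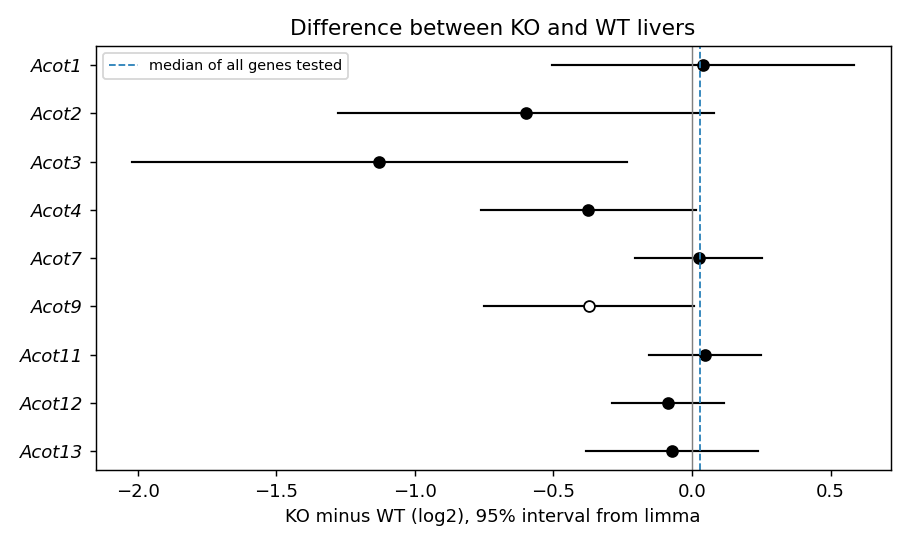
Log2 difference, KO minus WT (horizontal axis), with its 95% interval from limma for each thioesterase gene. Filled points are the 8 genes of the filtered fit, the open point is Acot9 from the fit without the filter, and the dashed line is the median of all genes tested (0.027); the interval of Acot3, from -2.02 to -0.24, is the only one wholly below 0.

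Over the family, 0 of the 8 tested genes passed limma's adjusted threshold, where 0.0361% of all genes did. At an unadjusted p under 0.05, 1 of the 8, Acot3, was lower in KO livers and 0 were higher, against 2.98% lower and 6.16% higher among all genes. KO and WT did not overlap in 0 of the 8, against 14.8% of all genes. The median difference of the 8 was -0.08, with 5 negative and 3 positive, beside a median of 0.03 over all genes tested. It was -0.49 over the 4 type I genes and -0.02 over the 4 type II genes. The type I median lay between -0.30, without WT mouse 2, and -0.69, without WT mouse 3.

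The spread of Acot3 within the WT group bore on its difference. Without WT mouse 3 the difference was -1.58 and the limma adjusted p 0.0810, the lowest of the 15 alternatives. Without WT mouse 2 it was -0.78 (adjusted p = 0.570) and without KO mouse 3 -0.84 (adjusted p = 0.736). In all 15 alternatives the difference of Acot3 was negative, as were those of Acot2, Acot4 and Acot12, and none of them passed.

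**Figure D3:**
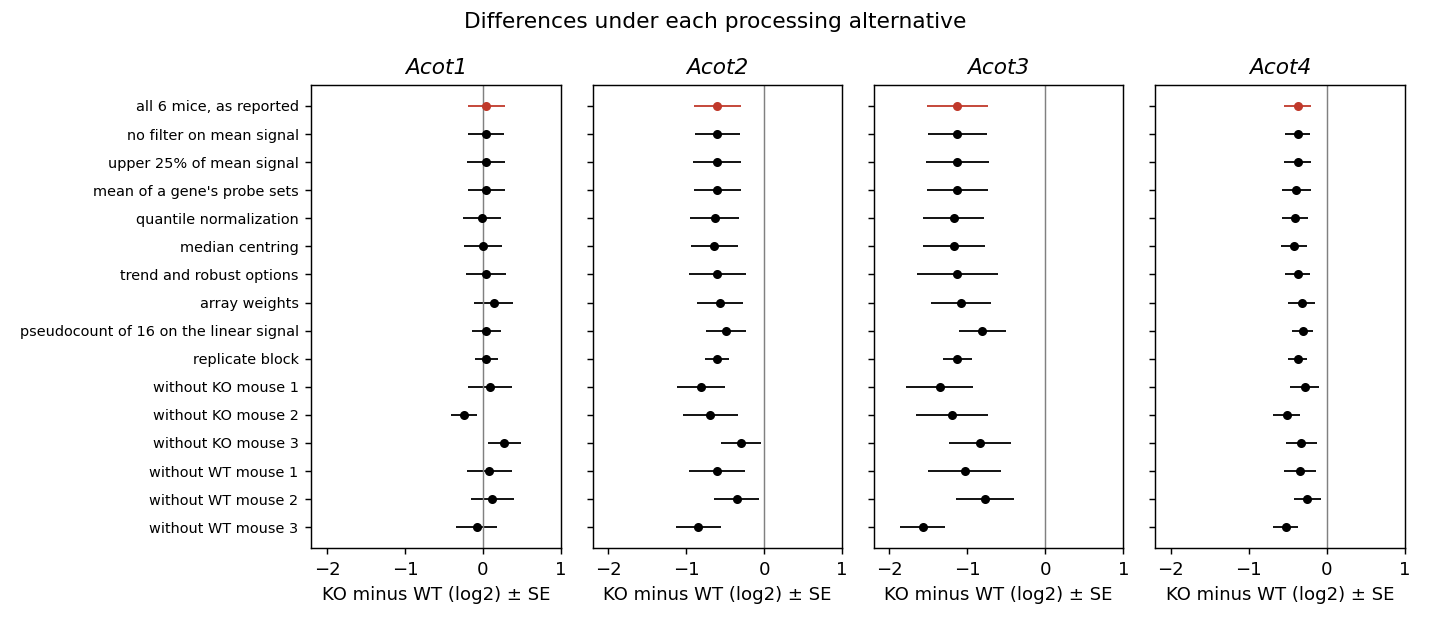
Log2 difference, KO minus WT, with its SE (horizontal axes) for Acot1, Acot2, Acot3 and Acot4 under each processing alternative (rows), with the reported fit in red. Acot3 stays between -1.58 and -0.78, and Acot1 lies on either side of 0.

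Means over markers that separate male from female liver varied between the mice, with the same mice at either end as for Acot3. Acot3 is itself known as a gene of higher expression in female mouse liver, and it was kept out of the list used here. Of the tested female-biased genes, Cyp4a14 is also on the PPARalpha list and Abcd2 on the peroxisomal oxidation list, both described below. Of 21 female-biased genes, 16 had a row and 9 were tested. All 9 had a negative difference, with a median of -0.45, while 0 passed limma's adjusted threshold. At an unadjusted p under 0.05, 1 of the 9 was lower, against 2.98% of all genes. That gene was Cyp2c40, a cytochrome P450, at 3.29, 3.03 and 3.29 in KO mice 1 to 3, against 3.77, 3.62 and 3.65 in WT mice 1 to 3 (difference -0.48 ± 0.11, SE; limma adjusted p = 0.283). Cyp2a4, a steroid hydroxylase, differed by -0.45 ± 0.21 (SE; limma adjusted p = 0.576). The mean deviation of the female-biased genes was 0.30, -0.39 and -0.56 in KO mice 1 to 3, against 0.11, 0.79 and -0.25 in WT mice 1 to 3. WT mouse 2 was the highest and KO mouse 3 the lowest in this mean, as in Acot2 and Acot3. These ends were not particular to sex-biased genes. The mean of the peroxisomal oxidation genes, described below, was also highest in WT mouse 2 (0.12) and lowest in KO mouse 3 (-0.11). WT mouse 2 was highest as well for acyl-CoA synthetases (0.15) and hepatocyte markers (0.05), but not for Kupffer cell markers or other thioesterases. Single female-biased genes did not all share the order of their mean: Cyp2c40 was highest in WT mouse 1 and lowest in KO mouse 2. Cyp2b9 varied most of the 9 and so weighed most on the mean. It was 8.43, 5.13 and 5.41 in KO mice 1 to 3, against 7.38, 10.3 and 4.61 in WT mice 1 to 3. The log2 of the summed signal of the 16 genes ran from 10.1 to 11.2 in KO livers and from 10.96 to 11.8 in WT livers.

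Male-biased genes lay the other way round. Of 18, 17 had a row and 15 were tested, with a median difference of 0.32, 13 of them positive, and 0 past the adjusted threshold. Their mean deviation was -0.39, 0.35 and 0.78 in KO mice 1 to 3, against -0.05, -1.02 and 0.33 in WT mice 1 to 3. The log2 of their summed signal ran from 12.5 to 13.2 in KO livers and from 12.1 to 12.8 in WT livers. C8a, a complement subunit, differed by 0.60 ± 0.19 (SE; limma adjusted p = 0.401), and Elovl3, a fatty acid elongase, by 0.70 ± 0.26 (SE; limma adjusted p = 0.469). The part of this variation in the Acot3 difference was not tested.

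**Figure D4:**
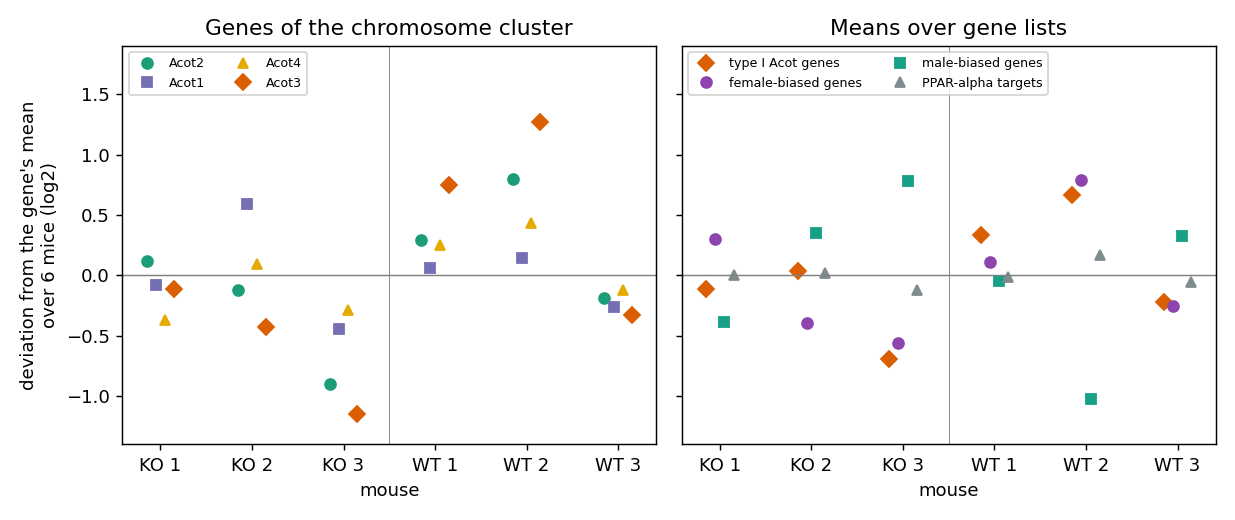
Deviation of each mouse from the mean over 6 mice (log2, vertical axis), with KO mice left and WT mice right; single type I genes are in the left panel and means over gene lists in the right panel. WT mouse 2 is high for Acot2, Acot3, Acot4 and the female-biased genes (0.79) and low for the male-biased genes (-1.02), and KO mouse 3 is low for Acot2 and Acot3.

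Genes known as targets of PPARalpha, to which the type I thioesterases belong, differed by less than Acot3 did. Of 36 listed genes other than thioesterases, 31 had a row and 29 were tested, with differences from -0.68 to 0.69. The median difference was -0.08, with 21 negative and 8 positive. At the adjusted threshold 0 passed, and at an unadjusted p under 0.05 there was 1 higher and 0 lower, against 6.16% higher and 2.98% lower among all genes. Every KO value lay above every WT value in 2 genes and below in 3, against 14.8% of all genes in both directions together. The gene with the unadjusted p under 0.05 was Mgll, monoglyceride lipase, which was 6.96, 7.0 and 6.93 in KO mice 1 to 3, against 6.73, 6.85 and 6.61 in WT mice 1 to 3 (difference 0.23 ± 0.10, SE; limma adjusted p = 0.528). Slc25a20, the carnitine-acylcarnitine carrier of the inner mitochondrial membrane, differed by -0.23 ± 0.10 (SE; limma adjusted p = 0.555). The mean deviation of the list was 0.01, 0.02 and -0.12 in KO mice 1 to 3, against -0.01, 0.17 and -0.06 in WT mice 1 to 3. WT mouse 2 and KO mouse 3 again marked the ends, over a narrower range than in the type I thioesterases. The list mean is over 29 genes and the type I mean over 4, so their ranges are not like for like. Some single genes of the list ranged more widely, such as Cidec, from 5.47 in KO mouse 2 to 7.14 in WT mouse 2.

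The peroxisome houses Acot3, Acot4 and Acot8, and 21 of 23 genes of peroxisomal oxidation were tested, some of them also on the PPARalpha list. Their median difference was -0.02, with 0 past the adjusted threshold. Crot, which makes acylcarnitines for export from the peroxisome, had the smallest p. It was 9.24, 9.12 and 9.03 in KO mice 1 to 3, against 9.40, 9.61 and 9.26 in WT mice 1 to 3, so the groups did not overlap (difference -0.29 ± 0.12, SE; limma adjusted p = 0.502). Hacl1, an enzyme of alpha-oxidation, differed by -0.22 ± 0.11 (SE; limma adjusted p = 0.605) and did not overlap either. In all, 4 of these 21 genes were separate and lower in KO livers, against 5.16% of all genes.

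Acyl-CoA synthetases, which make the substrate of the thioesterases, were represented by 12 tested genes of 23 listed. Their median difference was -0.04, with 7 negative and 5 positive and 0 past the adjusted threshold. Lower values without overlap were seen in 3 of the 12, again against 5.16% of all genes. Slc27a1, a fatty acid transporter with synthetase activity, was 4.14, 4.44 and 4.28 in KO mice 1 to 3, against 4.86, 5.36 and 5.31 in WT mice 1 to 3 (difference -0.89 ± 0.15, SE; limma adjusted p = 0.210). Acss3, a mitochondrial short-chain synthetase, was 5.95, 5.57 and 5.53 in KO mice 1 to 3, against 6.16, 6.52 and 6.07 in WT mice 1 to 3 (difference -0.57 ± 0.16, SE; limma adjusted p = 0.347).

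Genes of acyl-CoA binding, esterification and their regulation, 18 tested of 21, had a median difference of 0.01 with 0 past the adjusted threshold. Pparg, a nuclear receptor of fat storage, differed by -0.28 ± 0.14 and Dbi, the main acyl-CoA binding protein, by 0.18 ± 0.09 (SE; limma adjusted p = 0.593 for each). Ppara itself was 7.21, 7.20 and 7.22 in KO mice 1 to 3, against 7.17, 7.20 and 7.19 in WT mice 1 to 3, and is given for its role although the naming rule did not select it.

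Other thioesterases and their relatives were measured beside the 10 genes. Of 18 listed, all had a row and 14 were tested, with a median difference of 0.0021, 7 positive and 7 negative, and 0 past the adjusted threshold. Of the 14, 1 was higher without overlap and 1 was lower without overlap, against 14.8% of all genes tested in both directions together. Acot5 and Acot6, the last members of the chromosome 12 cluster, were dim. Acot5 was 1.55, 1.46 and 1.40 in KO mice 1 to 3, against 1.75, 1.56 and 1.64 in WT mice 1 to 3. Acot6 was 2.07, 2.05 and 2.08 in KO mice 1 to 3, against 2.37, 2.23 and 2.17 in WT mice 1 to 3. In both genes every KO value lay below every WT value, at signals under the filter, with differences of -0.18 and -0.19 (limma adjusted p = 0.702 and 0.679 without the filter). The share of genes under the filter with such separation was not computed, so theirs has no background to be read against.

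Acnat1, an acyltransferase that shares the type I fold and conjugates fatty acids to taurine, was on the other side. It was 6.85, 6.70 and 6.71 in KO mice 1 to 3, against 6.56, 6.33 and 6.46 in WT mice 1 to 3. The groups did not overlap, and the difference was 0.30 ± 0.10 (SE; limma adjusted p = 0.422). Its neighbour Acnat2 was 8.20, 7.34 and 7.32 in KO mice 1 to 3, against 7.09, 7.99 and 7.27 in WT mice 1 to 3, without such separation. Baat, which conjugates bile acids and has the same fold, differed by -0.02 ± 0.12 (SE; limma adjusted p = 0.981). Them6 was 3.87, 3.67 and 3.86 in KO mice 1 to 3, against 3.98, 4.15 and 3.93 in WT mice 1 to 3, again without overlap (difference -0.22 ± 0.10, SE; limma adjusted p = 0.579).

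**Figure D5:**
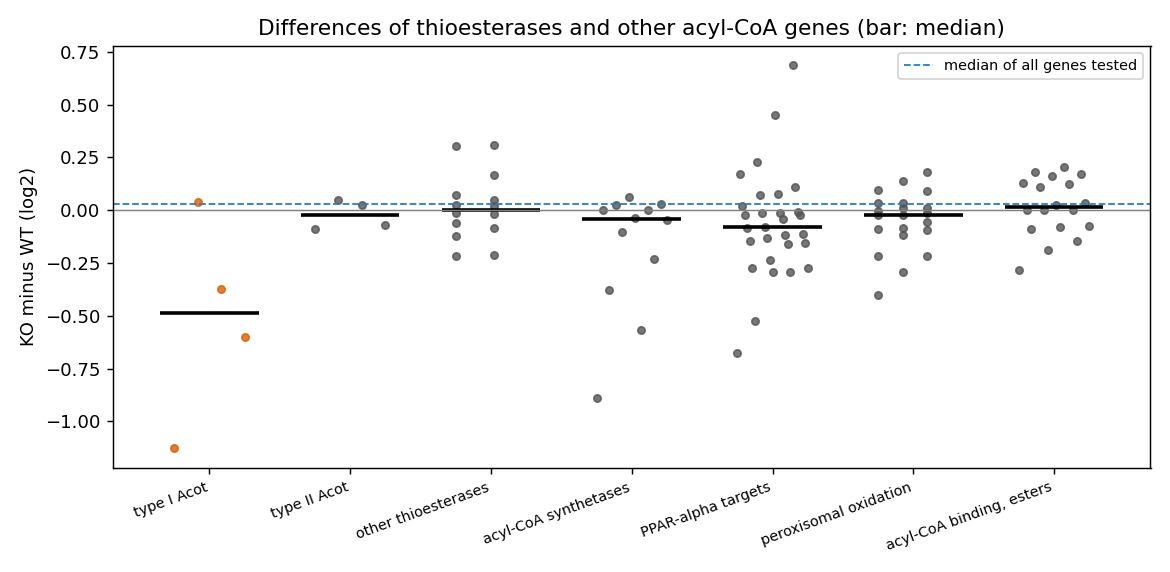
Log2 difference, KO minus WT (vertical axis), of each tested gene in 7 gene lists, with type I thioesterases in orange and a bar at each list's median. The dashed line is the median of all genes tested; the type I median is -0.49 and the other 6 medians lie between -0.08 and 0.01.

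Among the 10509 other genes compared, leaving out placeholder symbols, those whose values over the 6 mice were most like Acot3 were H2-Q10, a class I-like major histocompatibility gene secreted by liver (Pearson r = 0.993), Srsf2, a splicing factor (0.991), Tut4, an RNA uridylyltransferase (0.988), Lrwd1, a subunit associated with the origin recognition complex (0.984), and Pqbp1 (0.983). With 6 points and this many genes, such values describe the ranking only. Within the family the same r with Acot3 was 0.960 for Acot2, 0.808 for Acot4, 0.705 for Acot12, 0.370 for Acot1, 0.362 for Acot13, 0.284 for Acot11 and -0.623 for Acot7. The points are whole livers that share their arrays, and 2 groups of mice are pooled in them.

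Across the series, array medians lay between 2.67 and 2.73, and pairs of arrays correlated at 0.983 to 0.988. Gpr146 ran from 3.87 to 4.61 in KO livers and from 5.56 to 5.96 in WT livers, so the labels and the targeted gene match in direction, although limma's adjusted p was 0.0702. All 7 hepatocyte markers were tested, and Alb, serum albumin, was 11.9 in every mouse. Markers of 10 other cell types gave 0 genes past the adjusted threshold, and no neutrophil and monocyte or erythroid marker was tested. List medians ran from -0.51 for pancreatic acinar genes, with only 3 of 7 tested, to 0.28 for bile duct genes, with only 2 of 6 tested. Of the 8 markers of fat, a tissue from which Acot11 is known, 7 had a row and 4 of these, Adipoq, Lep, Retn and Ucp1, lay below the filter. Cidea, a lipid droplet protein gene on the same list, was 5.18, 3.42 and 3.26 in KO mice 1 to 3, against 5.49, 5.48 and 4.83 in WT mice 1 to 3 (difference -1.31 ± 0.45, SE; limma adjusted p = 0.437). KO mouse 1 lay within the WT range of Cidea. The other tested markers of the 3 were near 0: Fabp4 differed by 0.13 ± 0.39 and Plin1 by -0.02 ± 0.11 (SE). Their limma adjusted p was 0.945 and 0.969, and the median of the list was -0.02. The log2 of the summed signal of the 7 markers ran from 5.68 to 6.74 in KO livers and from 6.23 to 6.69 in WT livers. In whole liver, fewer cells of a type and less RNA per cell cannot be told apart.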

How the data were processed

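Per the labels' protocols, total RNA from liver (Trizol) was turned into biotinylated cRNA for an Affymetrix whole-transcript assay. The authors deposited 1 table of log2 values for 41345 probe sets in 6 mice; probe summary and normalization, not given in the sources used here, can shift every value, and the scale was inferred from the range of values. All 6 columns were matched to a mouse. Of the probe sets, 23521 carried 1 gene symbol, updated through Entrez numbers to the GRCm38.p6 gene table. Genes with a mean at or above 2.99 (the upper 50%, 11090 genes) were compared between KO and WT in R 4.3.3 with limma 3.58.1 (lmFit, then eBayes; two-sided; genotype only), and p-values were adjusted by Benjamini-Hochberg over all of them at 0.05. Precision is limited by having 3 mice a group: the median SE of a log2 difference was 0.114. Intervals are 95% intervals of the moderated fit. The fit was tested on simulated data.

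The 10 genes, the gene lists and the alternatives were chosen with earlier results of these data known. The rule for named genes took the 10 thioesterases, Gpr146, Alb, the other thioesterases, from each list the members past the threshold or the 2 of smallest p, and the 5 genes most like Acot3. Markers of hepatocytes and of 10 other cell types were listed. The labels number the mice 1 to 3 in each group, but no label ties a number to a shared litter. Over all genes tested, same-numbered mice deviated from their group means with correlations of 0.0551, -0.187 and 0.147, so the numbers were not used as pairs. A fit that used them as blocks is among the alternatives.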

Additional observations from a re-analysis of the deposited data

How the results depend on the processing

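Of the 8 thioesterase genes tested, none passed limma's adjusted threshold in the alternatives run for it (15, or 14 for Acot7 and Acot11), and their median stayed between -0.23 and -0.05. The -0.23 was the median of only 6 genes in the upper 25% of signal, without Acot7 and Acot11, and reflects that change of genes. Acot2, Acot3, Acot4 and Acot12 kept a negative difference throughout. The other signs were less firm: Acot1 was -0.0087 with quantile normalization, -0.00013 with median centring and between -0.24 and 0.28 with a mouse left out. Acot7 was -0.027 and -0.017 in those normalizations and between -0.034 and 0.076 with a mouse left out; Acot11 was -0.0050 with quantile normalization, and Acot13 ran from -0.157 to 0.063 with a mouse left out. Among all genes, the count of 4 called became 0 in the upper 25% of signal (567 at an unadjusted p under 0.05), where fewer genes are tested, 2 with median centring, 1 with the pseudocount of 16, 1 with the replicate block and 1 to 51 with a mouse left out, the 51 without WT mouse 3; the cause was not tested. In the fit with the replicate block, the SE was smaller for the type I genes and slightly larger for the tested type II genes. It was 0.18 for Acot3, against 0.39 in the main fit, and 0.15 for Acot2, against 0.30. Their limma adjusted p was 0.179 and 0.346, so neither passed. Acot11 and Acot7 were not in the upper 25%, so they have no value there; Acot9 was fitted once, without the filter, and the relatives outside the 10 genes were not followed across the alternatives.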
